A study of Mus musculus with 11 samples.

Results

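The genes described here are 38 mouse genes of the hypoxia response and of glycolysis, chosen by name: a gene entered where a probe set of the array was annotated with exactly its symbol. Single-gene probe sets were found for 37 of the 38, with 74 probe sets in all, out of 12393 genes and 22626 probe sets on the array. The expression of the remaining gene, G6pdx, was not analysed here. Each gene is given by its brightest probe set, and genes with several are compared across them near the end. By role the list held 4 genes of the oxygen-sensing machinery, 10 targets of hypoxia-inducible factor (HIF), 5 transporters and switch enzymes of glucose use, 13 enzymes of the glycolytic steps and 6 enzymes of the branches that lead off them.

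The study set cells growing as colonies in soft agar beside the same cells growing attached as a monolayer, in a tumorigenic line and in a parental line given a growth factor, and asked which expression changes the reversible and the irreversible forms of anchorage-independent growth share. The 4 groups were RT101 colonies (3 arrays), RT101 monolayer (2), bFGF-JB6 colonies (3) and bFGF-JB6 monolayer (3), 11 Affymetrix arrays with 1 RNA sample each. RT101 cells are a tumour variant of the mouse JB6 skin line and received no treatment. The bFGF-JB6 cells are of parental JB6 clone 41-5A and were given basic fibroblast growth factor (bFGF), at 10 ng/ml for the cells in agar; for the monolayer the labels say only that it was treated. Colonies of both lines were harvested on day 7, a time the labels say was chosen to limit large colonies with dying centres. Each line is a single cell line or clone, and the lines differ in growth factor as well as in origin, so line and treatment cannot be told apart. Whether replicate arrays represent independent cultures is not labelled; p-values therefore cover only array-to-array spread, part of which may be technical.

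All values are log2 signals, so a difference of 1 is a 2-fold change. The arrays had medians of 5.82 to 5.95. Their lower quartile averaged 3.84 (3.78 to 3.91), and a signal under it is close to the floor of the measurement, where changes are compressed. Arrays of the same group correlated at 0.989 to 0.998. Of 7 keratinocyte markers, 5 (Krt14, Trp63, Cdh1, Dsp and Perp) were at or below that quartile in every group and the highest averaged 5.18, so the defining epidermal markers were at or near the bottom in these skin-derived cells. Among the fibroblast markers Thy1 and Fap were at or below it, while the highest marker averaged 12.9 to 13.2. The linear signals of the 8 fibroblast markers summed to 18500 to 19161 in RT101 colonies, against 11703 to 12364 in RT101 monolayer, and to 12326 to 13743 in bFGF-JB6 colonies, against 13245 to 13981 in bFGF-JB6 monolayer. The 7 macrophage markers summed to 302 to 330.5 in RT101 colonies, against 256.6 to 259.5 in RT101 monolayer, and to 800.2 to 862 in bFGF-JB6 colonies, against 568 to 584.7 in bFGF-JB6 monolayer; Ptprc, Adgre1 and Itgam were at or below the quartile in every group. Of the 6 endothelial markers, Pecam1, Cdh5, Tek and Tie1 were at or below it in every group. The part of these shifts in the results below was not tested. In bulk RNA, fewer cells of a type and less RNA per cell cannot be told apart.

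As background, HIF is a transcription factor whose alpha subunits, Hif1a and Epas1 (HIF-2 alpha), are marked for destruction in the presence of oxygen by prolyl hydroxylases, among them Egln1 and Egln3. When oxygen is low the alpha subunits persist, pair with a constant partner and bind a short DNA motif near genes for blood vessel growth, glucose uptake, glycolysis and mitochondrial removal. Hif1a is mainly regulated as a protein, and its messenger RNA need not follow HIF activity. Glycolysis splits glucose into pyruvate, and tumour cells often run it fast even with oxygen present. Several of its steps have more than 1 enzyme form, such as the hexokinases Hk1 and Hk2 and the phosphofructokinases Pfkl, Pfkm and Pfkp, which are encoded by separate genes.

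The letters of the HIF motif stood upstream of most of the genes. The motif was searched as ACGTG and GCGTG on both strands of the 250 bases before each annotated start in the RefSeq table used (GRCm38.p6), where 35 of the 38 genes were matched and Epas1, Ndrg1 and Slc2a3 were not used; on the opposite strand these read CACGT and CACGC, and CACGTG holds ACGTG on both strands. Either motif occurred in 39 of 50 upstream sequences of the listed genes (78%), against 38.6% of all 32851, and in 33 of 35 genes, against 41.5% of all 27025 genes. By role it occurred in 9 of 9 HIF targets, 11 of 13 glycolytic enzymes and 6 of 6 branch enzymes, so its presence did not set the HIF targets apart. ACGTG alone occurred in 46% of the listed genes' sequences against 16.6% of all, GCGTG in 52% against 28.2%, and the longer CACGTG in 10% against 6.02%. The listed genes' sequences were also richer in G and C, with a median of 60.4% against 52.4%, and the part of base composition in the motif counts was not tested. A match is a description of letters and not a bound site. The 5 sequences below belong to genes on which the expression results turn; capitals mark the motifs, and each is read 5′ to 3′ towards the start of its gene. Ero1a and Hk2 moved in opposite directions in the colonies of the 2 lines, Bnip3 and Eno2 moved the same way, and Adm differed most between the lines. The Eno2 sequence holds neither motif in this window.
Ero1a (chr14:45318573-45318822, minus strand): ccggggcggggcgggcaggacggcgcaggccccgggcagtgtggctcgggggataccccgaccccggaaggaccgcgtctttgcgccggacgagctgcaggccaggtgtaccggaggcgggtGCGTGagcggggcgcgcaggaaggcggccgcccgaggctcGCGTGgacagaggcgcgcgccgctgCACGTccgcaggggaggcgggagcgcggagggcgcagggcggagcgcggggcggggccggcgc
Hk2 (chr6:82774455-82774704, minus strand): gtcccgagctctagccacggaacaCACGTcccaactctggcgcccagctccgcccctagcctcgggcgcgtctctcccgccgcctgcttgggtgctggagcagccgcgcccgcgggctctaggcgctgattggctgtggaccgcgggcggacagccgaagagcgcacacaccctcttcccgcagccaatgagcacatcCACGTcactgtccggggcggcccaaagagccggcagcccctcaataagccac
Bnip3 (chr7:138909507-138909756, minus strand): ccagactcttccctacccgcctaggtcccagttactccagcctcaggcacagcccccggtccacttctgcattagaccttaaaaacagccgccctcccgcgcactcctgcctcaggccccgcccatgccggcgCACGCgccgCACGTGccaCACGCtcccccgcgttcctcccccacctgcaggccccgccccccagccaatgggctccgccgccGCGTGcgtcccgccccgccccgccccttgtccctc
Eno2 (chr6:124769674-124769923, minus strand): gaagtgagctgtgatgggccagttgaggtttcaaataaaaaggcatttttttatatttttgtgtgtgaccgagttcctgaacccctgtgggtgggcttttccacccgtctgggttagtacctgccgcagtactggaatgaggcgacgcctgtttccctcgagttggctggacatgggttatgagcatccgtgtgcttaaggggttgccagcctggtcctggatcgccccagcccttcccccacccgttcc
Adm (chr7:110627407-110627656, plus strand): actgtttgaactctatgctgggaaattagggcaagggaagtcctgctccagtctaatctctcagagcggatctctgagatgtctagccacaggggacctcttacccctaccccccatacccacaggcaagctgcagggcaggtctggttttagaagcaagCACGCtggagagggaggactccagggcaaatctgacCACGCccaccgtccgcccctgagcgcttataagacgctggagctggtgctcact

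On the brightest probe set of each gene, more HIF targets fell than rose in RT101 colonies, and more rose than fell in bFGF-JB6 colonies. In both lines more glycolytic enzymes rose than fell. Of the 10 HIF targets, 1 rose and 4 fell in RT101 colonies against their monolayer, and 5 rose and 2 fell in bFGF-JB6 colonies against theirs. Of the 13 glycolytic enzymes, 6 rose and 2 fell in RT101 colonies, and 5 rose and 2 fell in bFGF-JB6 colonies. Here and below, rose and fell mean an adjusted p under 0.05 in limma's moderated test with Benjamini-Hochberg adjustment over all 12393 genes. Calls were common across the array: 17.0% of all genes rose and 15.4% fell in RT101 colonies, and 14.1% rose and 15.3% fell in bFGF-JB6 colonies. Among all 37 genes measured, 10 rose and 6 fell in RT101 colonies, with a median change of 0.09 against -0.01 over all genes, and 14 rose and 4 fell in bFGF-JB6 colonies, with a median of 0.20 against 0.03. The colony change was larger in RT101 for 7 of the 37 and smaller for 9 by the test of the difference itself, against 15.0% and 12.7% of all genes. The count of listed genes that rose in RT101 colonies was 5 without RT101 monolayer replicate 1 and 6 without RT101 colonies replicate 1. With the probe sets of a gene averaged, the excess of falling HIF targets in RT101 colonies did not hold. The fall of Vegfa was lost (limma adjusted p = 0.0893). Rises of Fam162a (0.25), Higd1a (0.41) and Kdm3a (0.25) passed (limma adjusted p = 0.0489, 0.0108 and 0.0456). Bnip3 still rose, and Adm, Ndrg1 and Ero1a still fell.

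**Figure D1:**
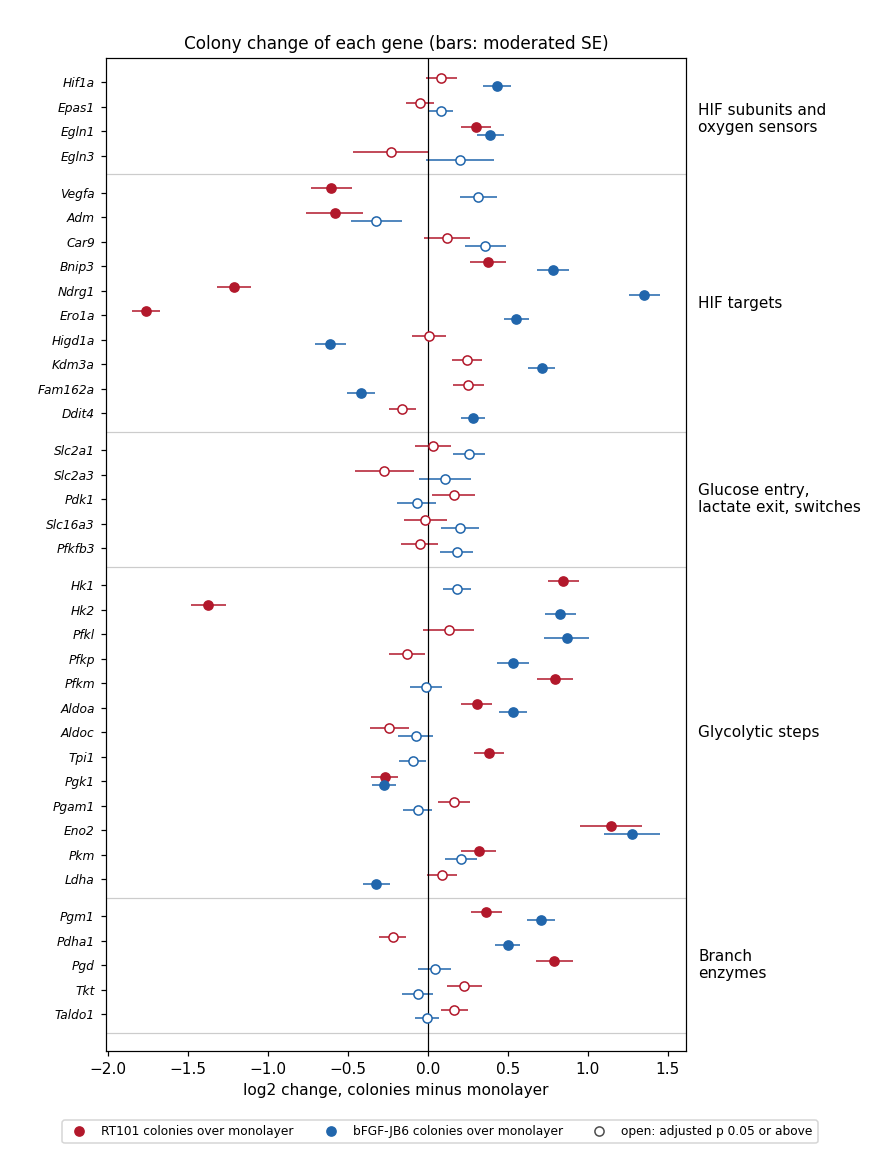
Change of each gene in colonies against monolayer on the log2 scale, RT101 and bFGF-JB6 side by side, with the moderated standard error as bars; filled points have an adjusted p under 0.05. Ndrg1, Ero1a and Hk2 lie left of 0 in RT101 (-1.21, -1.76 and -1.37) and right of it in bFGF-JB6 (1.35, 0.55 and 0.83), while Eno2 lies right of 0 in both (1.14 and 1.28).

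Among the listed genes Ndrg1, Ero1a and Hk2 fell in RT101 colonies and rose in bFGF-JB6 colonies; they are 3 of 37 (8.11%), against 197 of 12393 genes (1.59%) with that pair of calls. No listed gene fell in bFGF-JB6 colonies and rose in RT101 colonies, against 2.85% of all genes. Ero1a encodes the endoplasmic reticulum oxidase that helps form disulphide bonds in secreted proteins. Its signal was 9.26, 9.30 and 9.30 in RT101 colonies, against 11.08 and 11.02 in RT101 monolayer, and 10.45, 10.49 and 10.57 in bFGF-JB6 colonies, against 9.96, 10.02 and 9.87 in bFGF-JB6 monolayer. RT101 colonies were the lowest of the 4 groups and RT101 monolayer the highest, and no groups overlapped. The change was -1.76 in RT101 (SE 0.09, 3.39-fold lower, limma adjusted p = 5.06e-09) and 0.55 in bFGF-JB6 (SE 0.08, 1.47-fold higher, limma adjusted p = 0.000109). The colony changes differed by -2.31 (SE 0.12, limma adjusted p = 1.38e-08).

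Ndrg1, a stress-responsive gene often low in metastatic tumours, behaved alike. Its signal was 8.38, 8.43 and 8.24 in RT101 colonies, against 9.53 and 9.59 in RT101 monolayer, and 10.05, 10.05 and 9.75 in bFGF-JB6 colonies, against 8.64, 8.58 and 8.57 in bFGF-JB6 monolayer. The bFGF-JB6 colonies were highest and the RT101 colonies lowest. Ndrg1 fell 2.31-fold in RT101 colonies (log2 change -1.21, SE 0.11, limma adjusted p = 1.25e-06) and rose 2.55-fold in bFGF-JB6 colonies (1.35, SE 0.10, limma adjusted p = 2.1e-07). All 5 Ndrg1 probe sets were called in the same 2 directions, with changes of -1.57 to -0.89 in RT101 and 1.22 to 1.45 in bFGF-JB6. Hk2 encodes the inducible hexokinase, which traps glucose in the cell. Its signal was 7.22, 7.03 and 7.04 in RT101 colonies, against 8.46 and 8.48 in RT101 monolayer, and 8.11, 8.04 and 8.06 in bFGF-JB6 colonies, against 7.44, 7.10 and 7.19 in bFGF-JB6 monolayer. RT101 colonies and bFGF-JB6 monolayer overlapped at the low end. Hk2 fell 2.59-fold in RT101 colonies (-1.37, SE 0.11, limma adjusted p = 4.15e-07) and rose 1.77-fold in bFGF-JB6 colonies (0.83, SE 0.10, limma adjusted p = 2.22e-05). The colony changes differed by -2.56 for Ndrg1 (limma adjusted p = 3.68e-08) and by -2.20 for Hk2 (limma adjusted p = 1.3e-07).

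**Figure D2:**
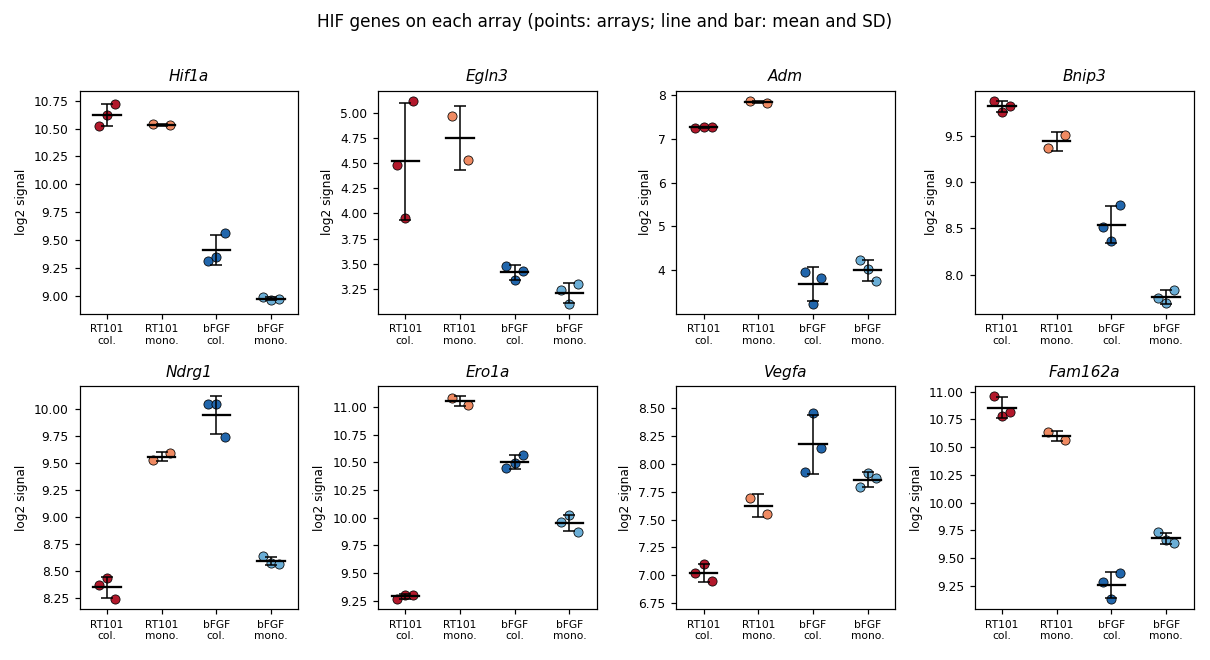
Log2 signal of oxygen-sensing and HIF target genes on each array, with group mean (line) and SD (bar); col. stands for colonies and mono. for monolayer. In Ndrg1 and Ero1a the RT101 colonies lie lowest, while in Adm both RT101 groups (7.24 to 7.86) lie far above both bFGF-JB6 groups (3.24 to 4.23).

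The other HIF targets fell into several patterns. Bnip3, which promotes the removal of mitochondria, was 9.88, 9.76 and 9.82 in RT101 colonies, against 9.37 and 9.51 in RT101 monolayer, and 8.51, 8.36 and 8.75 in bFGF-JB6 colonies, against 7.75, 7.69 and 7.83 in bFGF-JB6 monolayer. Colonies lay above monolayers in both lines, and both RT101 groups lay above both bFGF-JB6 groups. The rise was 0.38 in RT101 (SE 0.11, limma adjusted p = 0.0196) and 0.78 in bFGF-JB6 (SE 0.10, limma adjusted p = 5.43e-05), and the difference of -0.40 between them was on the edge of the threshold: its limma adjusted p was 0.0653, but 0.0433 with replicate number as a block and 0.0220 without bFGF-JB6 colonies replicate 2. The Bnip3 call in RT101 was lost without RT101 monolayer replicate 1 (limma adjusted p = 0.165), without RT101 colonies replicate 1 (0.0645) and with arrays centred on their medians (0.0542).

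Vegfa, the main signal for new blood vessels, was 7.02, 7.10 and 6.95 in RT101 colonies, against 7.70 and 7.55 in RT101 monolayer, and 7.93, 8.45 and 8.14 in bFGF-JB6 colonies, against 7.79, 7.91 and 7.87 in bFGF-JB6 monolayer. RT101 colonies were lowest. Vegfa fell by 0.60 in RT101 colonies (SE 0.13, limma adjusted p = 0.0024), a call lost when its probe sets were averaged (-0.39, limma adjusted p = 0.0893); its value of 0.32 in bFGF-JB6 colonies did not pass (limma adjusted p = 0.0561) but did without bFGF-JB6 colonies replicate 1 (0.44, 0.00859). The vasodilator peptide gene Adm was 7.24, 7.27 and 7.26 in RT101 colonies, against 7.86 and 7.82 in RT101 monolayer, and 3.97, 3.24 and 3.83 in bFGF-JB6 colonies, against 4.23, 4.02 and 3.76 in bFGF-JB6 monolayer. The bFGF-JB6 groups overlapped and lay close to the floor. Adm fell by 0.58 in RT101 colonies (SE 0.18, limma adjusted p = 0.0224), and its value of -0.32 in bFGF-JB6 colonies passed only without bFGF-JB6 colonies replicate 1 (-0.46, 0.0478) among the fits run. That call was lost without RT101 monolayer replicate 1 (limma adjusted p = 0.112), without RT101 monolayer replicate 2 (0.0858) and without RT101 colonies replicate 1 (0.0544).

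Fam162a and Higd1a, genes of mitochondrial proteins, fell in bFGF-JB6 colonies on the probe set used for each. Fam162a was 10.96, 10.78 and 10.82 in RT101 colonies, against 10.64 and 10.57 in RT101 monolayer, and 9.28, 9.13 and 9.37 in bFGF-JB6 colonies, against 9.74, 9.67 and 9.64 in bFGF-JB6 monolayer. It fell by 0.42 in bFGF-JB6 colonies (SE 0.09, limma adjusted p = 0.0023), and its value of 0.25 in RT101 did not pass (limma adjusted p = 0.065) but did without bFGF-JB6 colonies replicate 2 (0.0490) or 3 (0.0408). Higd1a on its brightest probe set was 10.04, 9.95 and 10.02 in RT101 colonies, against 9.91 and 10.08 in RT101 monolayer, and 8.28, 8.14 and 8.39 in bFGF-JB6 colonies, against 9.00, 8.87 and 8.77 in bFGF-JB6 monolayer. The RT101 groups overlapped, and the bFGF-JB6 colonies were the lowest group. The fall of 0.61 in bFGF-JB6 colonies (SE 0.09, limma adjusted p = 0.000253) was opposite to the changes of the gene's dimmer probe sets, given below. Of the rest, Kdm3a, a histone demethylase, rose by 0.71 in bFGF-JB6 colonies (limma adjusted p = 2.47e-05), against 0.25 in RT101, which did not pass (0.0628) but did without bFGF-JB6 colonies replicate 3 (0.0435). Ddit4, an inhibitor of the growth kinase mTORC1, rose by 0.28 in bFGF-JB6 colonies (limma adjusted p = 0.0117). Its value in RT101 was -0.16. Car9, the cell-surface carbonic anhydrase often used as a hypoxia marker, averaged 3.98 ± 0.10 in RT101 colonies, against 3.86 ± 0.18 in RT101 monolayer (SD, n = 3 and 2), and 4.12 ± 0.29 in bFGF-JB6 colonies, against 3.76 ± 0.06 in bFGF-JB6 monolayer (SD, n = 3 each). Car9 stayed near the bottom of the scale in every group and no contrast passed. Its limma adjusted p in bFGF-JB6 colonies was 0.0506, and 0.0287 and 0.0345 without bFGF-JB6 colonies replicate 1 and replicate 2.

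Among the genes of the oxygen-sensing machinery, Hif1a changed little in colonies next to its difference between lines. Its signal was 10.52, 10.62 and 10.72 in RT101 colonies, against 10.54 and 10.53 in RT101 monolayer, and 9.31, 9.35 and 9.56 in bFGF-JB6 colonies, against 8.99, 8.96 and 8.97 in bFGF-JB6 monolayer. It rose by 0.43 in bFGF-JB6 colonies (SE 0.09, limma adjusted p = 0.00189), against 0.08 in RT101 colonies (95% interval -0.13 to 0.30), and the difference of -0.35 was on the edge of the threshold: its limma adjusted p was 0.0664, but 0.0466 with replicate number as a block and 0.0449 without bFGF-JB6 colonies replicate 1. Over the 4 Hif1a probe sets that difference ran from -0.35 to 0.18 and none was called, so its sign depends on the probe set. Egln1, the main prolyl hydroxylase, rose by 0.30 in RT101 colonies (limma adjusted p = 0.0252) and by 0.39 in bFGF-JB6 colonies (limma adjusted p = 0.00307). The Egln1 call in RT101 was lost without any 1 of the 5 RT101 arrays (limma adjusted p = 0.0552 to 0.162), and the 2 calls were lost with the mean of its probe sets (0.208 in RT101 and 0.0799 in bFGF-JB6). The dimmer Egln1 probe set read 7.27 on bFGF-JB6 colonies replicate 3, against 8.19 and 8.03 on the other bFGF-JB6 colony arrays. Egln3, itself a HIF target, was 4.48, 3.96 and 5.12 in RT101 colonies, against 4.97 and 4.53 in RT101 monolayer, and 3.48, 3.33 and 3.43 in bFGF-JB6 colonies, against 3.24, 3.10 and 3.30 in bFGF-JB6 monolayer. Egln3 did not pass in colonies of either line over all arrays. Its RT101 value of -0.23 became -0.53 without RT101 colonies replicate 3 (limma adjusted p = 0.0375), and the difference between the lines then was -0.73 against -0.43 over all arrays (limma adjusted p = 0.0317 against 0.377). Epas1 lay at 3.15 to 3.51 as group means, at the bottom of the scale, and did not pass in colonies either.

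None of the 5 transporters and switch enzymes passed in colonies of either line on its brightest probe set. The glucose transporter Slc2a1 averaged 9.89 ± 0.08 in RT101 colonies, against 9.85 ± 0.11 in RT101 monolayer (SD, n = 3 and 2), and 9.72 ± 0.19 in bFGF-JB6 colonies, against 9.46 ± 0.07 in bFGF-JB6 monolayer (SD, n = 3 each). The colony change of Slc2a1 was 0.03 in RT101 and 0.26 in bFGF-JB6 (limma adjusted p = 0.0751). The bFGF-JB6 change passed with the gene's probe sets averaged (0.32, limma adjusted p = 0.0132), with cyclic loess (0.0243), with a trended variance (0.0343), in a fit to the brighter genes only (0.0383) and without bFGF-JB6 colonies replicate 2 (0.0139). The transporters Slc2a3 (glucose) and Slc16a3 (lactate) stayed near the bottom of the scale, with group means of 3.29 to 3.89 and 3.85 to 4.05. Pdk1, which blocks the entry of pyruvate into mitochondria, was 6.13, 6.20 and 6.07 in RT101 colonies, against 6.01 and 5.94 in RT101 monolayer, and 4.95, 5.20 and 5.14 in bFGF-JB6 colonies, against 5.01, 5.48 and 5.01 in bFGF-JB6 monolayer. The bFGF-JB6 groups overlapped and the RT101 groups lay above them.

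Along the glycolytic steps, the 2 hexokinases moved in opposite ways in RT101 colonies. Hk1, the housekeeping hexokinase, was 8.55, 8.69 and 8.52 in RT101 colonies, against 7.80 and 7.68 in RT101 monolayer, and 9.87, 9.97 and 9.83 in bFGF-JB6 colonies, against 9.82, 9.62 and 9.67 in bFGF-JB6 monolayer. RT101 monolayer was lowest. Hk1 rose 1.80-fold in RT101 colonies (0.85, SE 0.10, limma adjusted p = 1.51e-05), while Hk2 fell there, as given above. In bFGF-JB6 colonies Hk1 was 0.19 higher, which did not pass (limma adjusted p = 0.14). It passed without bFGF-JB6 colonies replicate 3 and bFGF-JB6 monolayer replicate 1 (0.27, limma adjusted p = 0.0487). On those 2 arrays alone the 3′ signal of the Gapdh control exceeded its 5′ signal, by 0.35 and 0.19. Of the 3 phosphofructokinase genes, which encode the committed step of glycolysis, Pfkm rose by 0.79 in RT101 colonies (SE 0.11, limma adjusted p = 8.56e-05), against -0.01 in bFGF-JB6 colonies. Pfkl and Pfkp rose in bFGF-JB6 colonies instead. Pfkl was 9.23, 9.26 and 9.14 in RT101 colonies, against 8.99 and 9.17 in RT101 monolayer, and 8.26, 8.27 and 7.83 in bFGF-JB6 colonies, against 7.51, 6.97 and 7.27 in bFGF-JB6 monolayer. Pfkp was 7.03, 6.82 and 6.87 in RT101 colonies, against 7.05 and 7.02 in RT101 monolayer, and 8.53, 8.39 and 8.66 in bFGF-JB6 colonies, against 8.15, 7.88 and 7.94 in bFGF-JB6 monolayer. The rises in bFGF-JB6 colonies were 0.87 for Pfkl (SE 0.14, limma adjusted p = 0.000368) and 0.53 for Pfkp (SE 0.10, limma adjusted p = 0.00113); in RT101 colonies the values were 0.13 and -0.13. The colony changes of all 3 genes differed between the lines, by 0.81 for Pfkm, -0.74 for Pfkl and -0.67 for Pfkp (limma adjusted p = 0.00114, 0.0186 and 0.00433). The Pfkl difference was lost without RT101 monolayer replicate 2 (limma adjusted p = 0.0836).

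**Figure D3:**
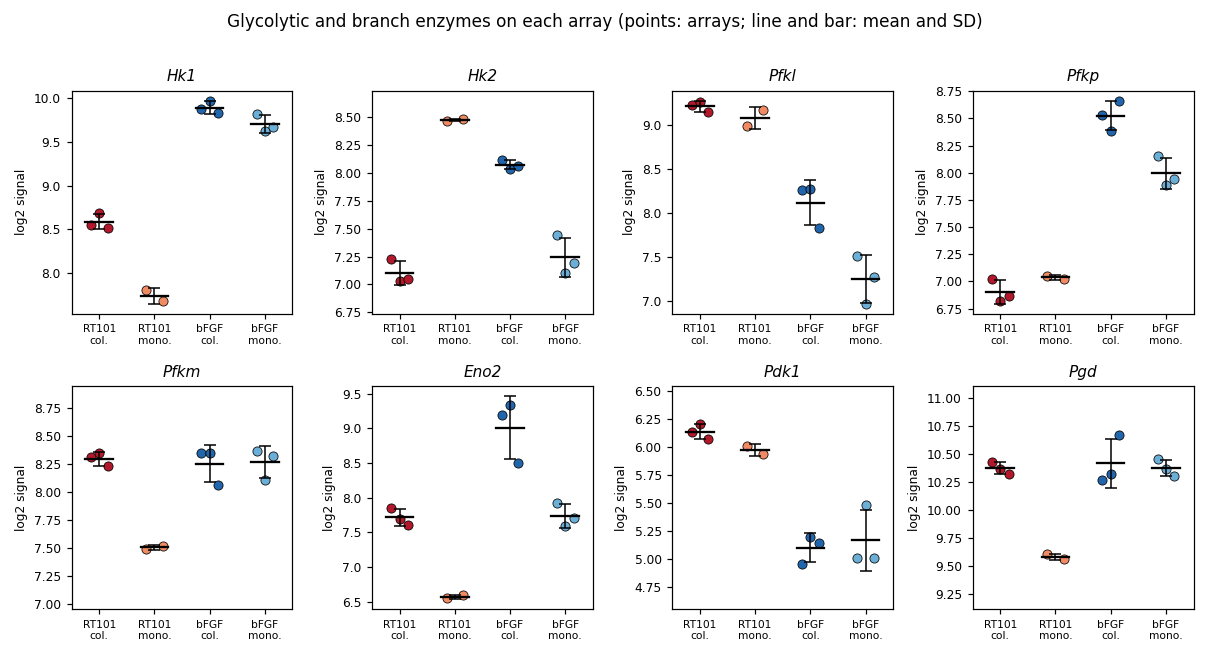
Log2 signal of glycolytic and branch enzymes on each array, with group mean (line) and SD (bar); col. stands for colonies and mono. for monolayer. Pfkm and Pgd stand lowest in RT101 monolayer (means 7.50 and 9.58) and at similar levels in the other 3 groups (8.25 to 8.30 and 10.37 to 10.42).

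Eno2, the enolase of neurons and many tumours, rose by over 2-fold in both kinds of colony. Its signal was 7.85, 7.69 and 7.60 in RT101 colonies, against 6.55 and 6.59 in RT101 monolayer, and 9.20, 9.35 and 8.50 in bFGF-JB6 colonies, against 7.92, 7.59 and 7.70 in bFGF-JB6 monolayer. RT101 colonies overlapped bFGF-JB6 monolayer. The rise was 2.21-fold in RT101 (1.14, SE 0.20, limma adjusted p = 0.000417) and 2.42-fold in bFGF-JB6 (1.28, SE 0.17, limma adjusted p = 8.72e-05), and the difference between them was -0.13 (95% interval -0.70 to 0.43). The array bFGF-JB6 colonies replicate 3, where Eno2 read 8.50, was 1 of the 2 arrays where the Gapdh control read higher at 3′ than at 5′. Its Gapdh 5′ signal was 12.49, against 12.96 and 12.99 in the other bFGF-JB6 colony arrays, and its 3′ signal was not raised. Without both arrays (the other was bFGF-JB6 monolayer replicate 1), the rise in bFGF-JB6 was 1.63. The difference between the lines then became -0.48 and passed (limma adjusted p = 0.0227). Only 5 listed genes rose in colonies of both lines: Eno2, Bnip3, Egln1, Aldoa and Pgm1, 13.5% of the 37 against 5.70% of all genes. Aldoa, which splits fructose bisphosphate, rose by 0.30 in RT101 (limma adjusted p = 0.0249) and by 0.53 in bFGF-JB6 (limma adjusted p = 0.000331). Pgm1, which links glycogen to glycolysis, rose by 0.37 in RT101 (limma adjusted p = 0.00954) and by 0.71 in bFGF-JB6 (limma adjusted p = 3.38e-05). Pgk1, the first enzyme of the pathway to form ATP, fell in both, by 0.27 in RT101 (limma adjusted p = 0.0268) and by 0.28 in bFGF-JB6 (limma adjusted p = 0.0145), and was the only listed gene to do so. Calls in RT101 were lost without RT101 monolayer replicate 1 for Aldoa (limma adjusted p = 0.219) and Pgk1 (0.267), and without RT101 monolayer replicate 2 for Pgm1 (0.0707). Leaving out RT101 colonies replicate 1 or 2 also ended the calls of Aldoa (0.0842 and 0.0548) and Pgk1 (0.0628 and 0.0675), and leaving out RT101 colonies replicate 3 that of Pgk1 (0.0700). In bFGF-JB6 the Pgk1 call ended when bFGF-JB6 colonies replicate 3 and bFGF-JB6 monolayer replicate 1 were both left out (0.0518) and with cyclic loess (0.0751).

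Of the other glycolytic steps, Tpi1, which interconverts the triose phosphates, rose by 0.38 in RT101 colonies (limma adjusted p = 0.006), and the call was lost without RT101 monolayer replicate 1 (0.0861). Pkm, the pyruvate kinase gene, rose by 0.32 in RT101 colonies (limma adjusted p = 0.0429), and 8 of the 11 fits that left out 1 array lost that call (limma adjusted p = 0.0525 to 0.190), namely those without any 1 of the 3 bFGF-JB6 monolayer, 2 RT101 monolayer or 3 RT101 colony arrays. Ldha, the lactate dehydrogenase subunit that HIF induces, fell by 0.32 in bFGF-JB6 colonies (limma adjusted p = 0.0104), against 0.09 in RT101; the fall did not pass without bFGF-JB6 monolayer replicate 3 (0.0564). Aldoc stayed at the bottom of the scale and Pgam1 did not pass in colonies. Pgk1, Ldha and Pgam1 have near-identical pseudogene copies that array probes may also read, so their values are uncertain. In the branches, Pgd, an NADPH-forming enzyme of the pentose phosphate pathway, rose by 0.79 in RT101 colonies (limma adjusted p = 0.000112), against 0.04 in bFGF-JB6 colonies. Pdha1, a subunit of the complex that feeds pyruvate into mitochondria, rose by 0.50 in bFGF-JB6 colonies (limma adjusted p = 0.000204). Its value in RT101 of -0.22 did not pass (0.0634) but did without bFGF-JB6 colonies replicate 3 (0.0453) and with arrays centred on their medians (-0.28, 0.0187). Tkt and Taldo1 did not pass in colonies on their brightest probe sets. Gapdh was read here by control probe sets, which were not tested: the middle one averaged 12.7 ± 0.05 in RT101 colonies, against 12.9 ± 0.05 in RT101 monolayer (SD, n = 3 and 2), and 12.9 ± 0.23 in bFGF-JB6 colonies, against 12.9 ± 0.11 in bFGF-JB6 monolayer (SD, n = 3 each).

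Between the lines, RT101 stood above bFGF-JB6 in most of the 10 listed HIF targets in monolayer, while more of the wider hypoxia genes were lower in it. Of the 10 targets 7 were higher and 0 lower in RT101 monolayer at an adjusted p under 0.05, or at an unadjusted p under 0.05; over all genes 23.2% were higher and 21.2% lower. In colonies 5 were higher and 4 lower in RT101, against 22.7% and 20.7% of all genes. The median difference of the 10 targets was 0.96 in monolayers and 0.19 in colonies, against 0.05 and 0.00 over all genes. The 13 glycolytic enzymes had 4 higher and 5 lower in RT101 monolayer, and 4 higher and 4 lower in RT101 colonies. Of the 31 other hypoxia genes measured, 4 were higher and 12 lower in RT101 colonies (median -0.05), and 8 were higher and 13 lower in RT101 monolayer (median -0.16). Of the 26 other genes of glucose metabolism, 7 were higher and 4 lower in RT101 colonies, and 7 higher and 5 lower in RT101 monolayer. These comparisons use the same arrays as the colony comparisons and are not separate evidence.

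**Figure D4:**
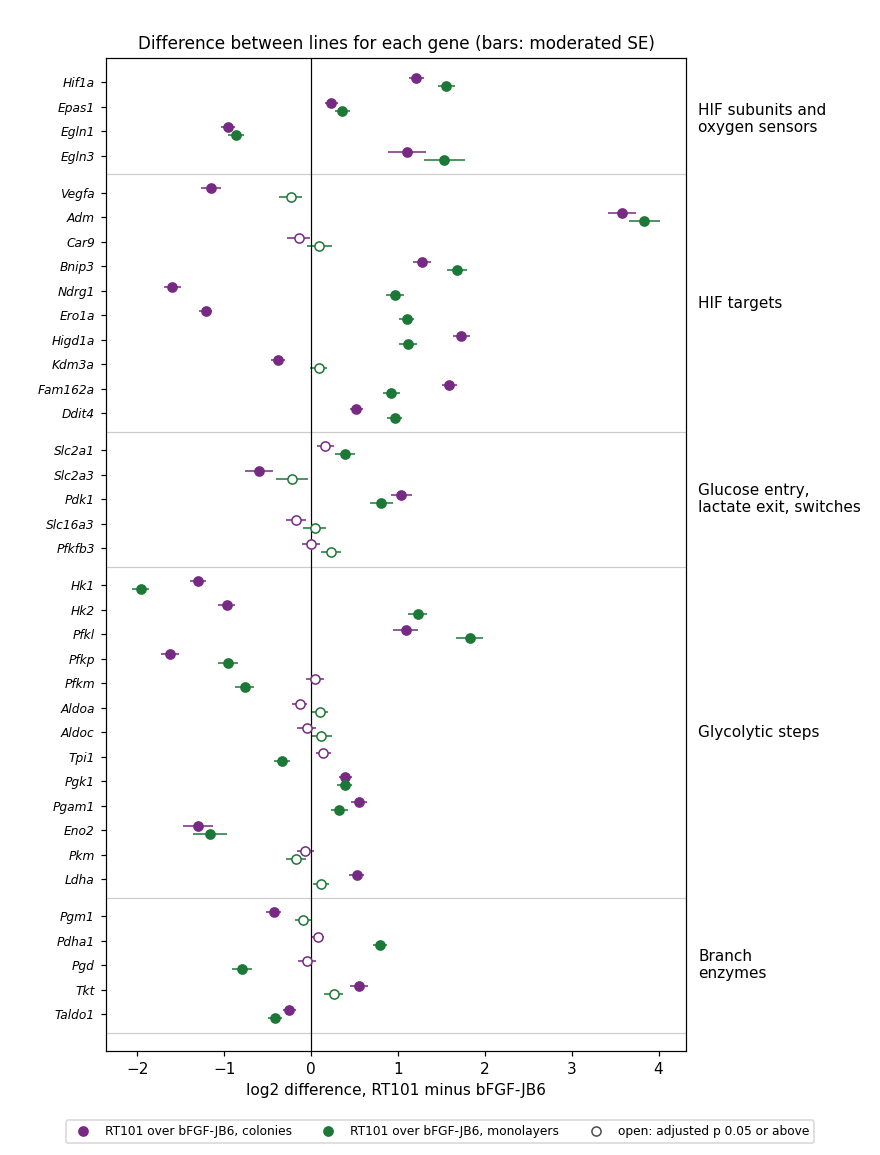
Difference of each gene between RT101 and bFGF-JB6 on the log2 scale, in colonies and in monolayers, with the moderated standard error as bars; filled points have an adjusted p under 0.05. Adm lies farthest right (3.58 in colonies and 3.84 in monolayers), and Ndrg1, Ero1a and Hk2 lie on opposite sides of 0 in colonies and monolayers.

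Adm had the largest difference of the listed genes, at 11.9-fold higher in RT101 colonies (3.58, SE 0.16, limma adjusted p = 6.95e-10) and 14.3-fold higher in RT101 monolayer (3.84, SE 0.18, limma adjusted p = 1e-09). Because the bFGF-JB6 signals lay near the bottom of the scale, the fold may be understated. Hif1a was 2.31-fold higher in RT101 colonies (1.21, limma adjusted p = 8.13e-08) and 2.95-fold higher in RT101 monolayer (1.56, limma adjusted p = 2.02e-08). Its 4 probe sets were 0.26 to 1.31 higher in colonies, 3 of them called, and 0.41 to 1.56 higher in monolayers, all called. Bnip3 was 2.43-fold and 3.21-fold higher, and Egln3, whose bFGF-JB6 signals lay near the bottom of the scale, 2.15-fold and 2.90-fold higher, in RT101 colonies and monolayer (limma adjusted p = 1.9e-07, 3.87e-08, 0.000716 and 0.000113). Higd1a and Fam162a were 3.32-fold and 3.02-fold higher in RT101 colonies (limma adjusted p = 4.76e-09 and 4.78e-09). The size for Higd1a depends on the probe set. Its 3 probe sets were 0.07 to 1.73 higher in colonies, 2 of them called, and 0.13 to 1.11 higher in monolayers, 1 of them called. Egln1, the sensor that marks the HIF alpha protein for destruction, was lower in RT101, by 0.96 in colonies (limma adjusted p = 5.86e-07) and by 0.87 in monolayer (limma adjusted p = 4.31e-06). Vegfa was instead 2.22-fold lower in RT101 colonies (-1.15, SE 0.12, limma adjusted p = 1.96e-06), and its difference in monolayers of -0.23 did not pass (limma adjusted p = 0.172).

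The genes that moved in opposite directions in colonies changed their order between the lines. Ndrg1, Ero1a and Hk2 were higher in RT101 monolayer, by 0.97, 1.10 and 1.23 (limma adjusted p = 4.92e-06, 1.72e-07 and 5.18e-07), and lower in RT101 colonies, with differences of -1.60, -1.21 and -0.97 (limma adjusted p = 1.24e-08, 2.28e-08 and 1.81e-06). Hk1 was 2.46-fold lower in RT101 colonies (-1.30, limma adjusted p = 3.84e-08) and 3.90-fold lower in RT101 monolayer (-1.96, limma adjusted p = 1.97e-09). Pfkl was 2.13-fold higher in RT101 colonies (1.09, limma adjusted p = 2.14e-05) and 3.54-fold higher in RT101 monolayer (1.83, limma adjusted p = 4.26e-07), while Pfkp was lower, by 1.62 in colonies (limma adjusted p = 1.66e-08) and 0.96 in monolayers (limma adjusted p = 8.32e-06). Eno2 was lower in RT101 by 1.30 in colonies (limma adjusted p = 3.01e-05) and by 1.17 in monolayers (limma adjusted p = 0.000208). Pfkm and Pgd were lower in RT101 monolayer, by 0.76 and 0.79 (limma adjusted p = 6.64e-05 and 5.95e-05). In colonies the differences of Pfkm and Pgd were 0.04 (95% interval -0.17 to 0.26) and -0.05 (95% interval -0.27 to 0.18). Pdk1 was 2.06-fold higher in RT101 colonies (1.04, SE 0.12, limma adjusted p = 8.25e-06), and 0.81 higher in RT101 monolayer (limma adjusted p = 0.000215). Small line differences that were lost without 1 array were those of Tpi1 and Pgam1 in monolayers without RT101 monolayer replicate 1 (limma adjusted p = 0.116 and 0.0683), Pgam1 and Slc2a1 in monolayers without RT101 monolayer replicate 2 (0.0742 and 0.113), and Epas1 and Taldo1 in colonies without RT101 colonies replicate 3 (0.0643 and 0.0522); Epas1 was also lost without RT101 colonies replicate 2 (0.107) and without bFGF-JB6 colonies replicate 1 (0.0598).

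Of the 37 genes 21 had more than 1 probe set. In RT101 colonies all probe sets were called in 1 direction for 5 of the 21, only some were called for 8 and none for 8. In bFGF-JB6 colonies all were called in 1 direction for 4, only some for 8 and none for 8. On bFGF-JB6 colonies replicate 3, where the Gapdh control read higher at 3′ than at 5′, some dimmer probe sets read low. Hk1 1420901_a_at was 8.21 there, against 9.31 and 9.41 on the other bFGF-JB6 colony arrays. The same array read 9.24 on Slc2a1 1426600_at, against 9.06 and 9.06. These counts were not repeated without that array. Leaving out 1 array gave 27 to 37 listed-gene probe sets that rose in bFGF-JB6 colonies. Across the 5 contrasts opposite calls occurred for 1 gene in 1 contrast, Higd1a in bFGF-JB6 colonies. In this fit over all 22626 probe sets, 14.4% rose and 14.1% fell in RT101 colonies, and 12.6% rose and 13.9% fell in bFGF-JB6 colonies. Of the 74 probe sets of the listed genes 21 rose and 13 fell in RT101 colonies, and 28 rose and 6 fell in bFGF-JB6 colonies; without RT101 monolayer replicate 1, 9 rose in RT101 colonies. The brightest Higd1a probe set (1416480_a_at) changed by 0.01 in RT101 colonies and fell by 0.61 in bFGF-JB6 colonies (limma adjusted p = 0.000503). The dimmer 1416481_s_at was 6.84, 6.68 and 6.75 in RT101 colonies, against 5.88 and 5.96 in RT101 monolayer, and 6.41, 6.09 and 6.65 in bFGF-JB6 colonies, against 5.79, 5.44 and 5.55 in bFGF-JB6 monolayer. It rose in both, by 0.84 (limma adjusted p = 0.00103) and 0.79 (limma adjusted p = 0.000838). The dimmest, 1448359_a_at, at 3.37 to 4.08 near the bottom of the scale, also rose, by 0.39 in RT101 and 0.46 in bFGF-JB6 (limma adjusted p = 0.0308 and 0.00804). The direction of Higd1a in bFGF-JB6 colonies therefore depends on the probe set. The 3 Ero1a probe sets all fell in RT101 colonies, with changes of -2.17 to -1.76, and 2 of the 3 rose in bFGF-JB6 colonies (0.49 to 0.76 over the 3). Of the 4 Hif1a probe sets, 1 rose in RT101 colonies, 1416035_at by 0.49 (limma adjusted p = 0.0321), and 1 other, the brightest, in bFGF-JB6 colonies.

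Slc2a1, Pgd, Tkt, Pfkfb3 and Pdk1 were among the genes whose probe sets differed in whether they passed. For Slc2a1 the probe set 1426600_at rose by 0.40 in bFGF-JB6 colonies (limma adjusted p = 0.00367), against 0.15 in RT101, while its other 2 did not pass. All 4 Pgd probe sets rose in RT101 colonies, by 0.71 to 0.85, and 1 of them, 1423706_a_at, also rose in bFGF-JB6 colonies (0.38, limma adjusted p = 0.0052). The dimmer Tkt probe set, 1451015_at, rose by 0.47 in RT101 colonies (limma adjusted p = 0.00533). Pfkfb3 encodes the enzyme that makes the main activator of phosphofructokinase. Its second probe set, 1416432_at, was 3.89, 3.81 and 3.76 in RT101 colonies, against 3.87 and 4.44 in RT101 monolayer, and 4.53, 4.37 and 4.55 in bFGF-JB6 colonies, against 3.31, 3.21 and 3.43 in bFGF-JB6 monolayer. The bFGF-JB6 colonies lay above their monolayer and the RT101 groups overlapped. The monolayer signals of bFGF-JB6 were below the lower quartile of 3.84, so the size of the change is uncertain. It rose by 1.17 in bFGF-JB6 colonies (limma adjusted p = 3.3e-05) and was -0.33 in RT101 colonies (limma adjusted p = 0.112), while the slightly brighter probe set gave 0.18 in bFGF-JB6 colonies and -0.05 in RT101 colonies. For Pdk1 the dimmer probe set, 1423747_a_at, was 4.73, 5.29 and 4.78 in RT101 colonies, against 4.21 and 4.37 in RT101 monolayer, and 2.20, 2.12 and 2.39 in bFGF-JB6 colonies, against 2.44, 2.27 and 2.16 in bFGF-JB6 monolayer. It rose by 0.64 in RT101 colonies (limma adjusted p = 0.00884). All bFGF-JB6 signals of this probe set lay below the lower quartile of 3.84, and no size is given for the difference between the lines (limma adjusted p = 2.03e-08 in colonies and 7.59e-07 in monolayers).

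**Figure D5:**
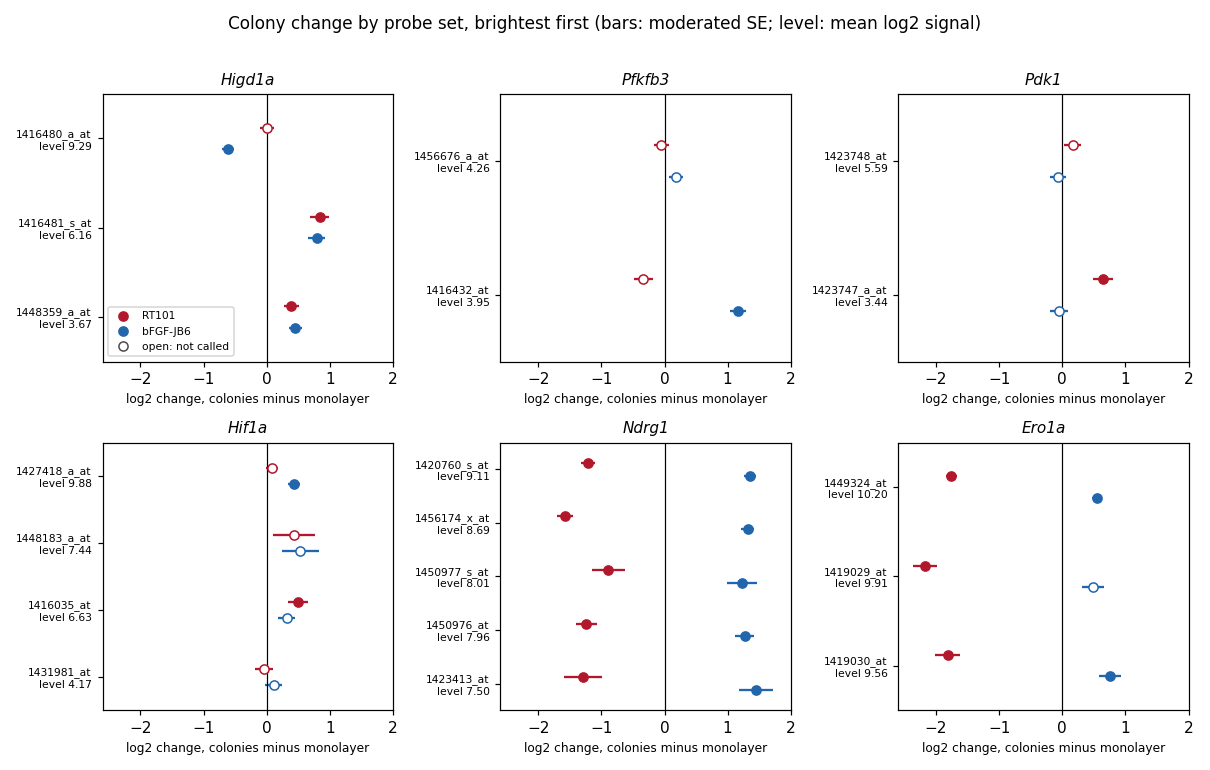
Colony change on the log2 scale of every probe set of Higd1a, Pfkfb3, Pdk1, Hif1a, Ndrg1 and Ero1a, brightest at the top, RT101 above bFGF-JB6, with the moderated standard error as bars; open points were not called. The 5 Ndrg1 probe sets lie together (-1.57 to -0.89 in RT101, 1.22 to 1.45 in bFGF-JB6), while the Higd1a probe sets spread from -0.61 to 0.79 in bFGF-JB6.

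A wider set of pathway genes was read beside the list. Of 31 other hypoxia genes measured, 10 rose (32.3%, against 17.0% of all genes) and 5 fell (16.1% against 15.4%) in RT101 colonies, and 13 rose (41.9% against 14.1%) and 4 fell (12.9% against 15.3%) in bFGF-JB6 colonies. Bhlhe40, a transcriptional repressor induced by HIF, rose in both, by 2.15 in RT101 and 1.42 in bFGF-JB6. The nuclear receptor gene Rora rose by 0.83 in RT101 and 0.98 in bFGF-JB6. Zfp395 rose by 0.81 in each line. The largest other rises were those of the vascular growth factor Pgf (0.85) in RT101 colonies, and of the haem oxygenase Hmox1 (1.16) and the lipid droplet protein Plin2 (0.94) in bFGF-JB6 colonies. Hilpda, which inhibits fat breakdown, fell in both, by 0.52 in RT101, a call lost without RT101 monolayer replicate 2 (limma adjusted p = 0.0618), and by 0.71 in bFGF-JB6. Other falls were those of the secreted hormone Stc2 (-0.88), the glycogen synthase Gys1 (-0.65) and the vasoconstrictor Edn1 (-0.40) in RT101 colonies. In bFGF-JB6 colonies the hormone gene Stc1 fell by 1.38. Cited2, which competes with HIF for a coactivator, fell by 0.32 in each line. Mxi1, an antagonist of Myc, rose by 0.42 in RT101 colonies and fell by 0.30 in bFGF-JB6 colonies. The Edn1 call was lost without RT101 monolayer replicate 2 (limma adjusted p = 0.357), RT101 colonies replicate 1 (0.0545) or replicate 2 (0.0951), and the Mxi1 call in bFGF-JB6 without bFGF-JB6 monolayer replicate 3 (0.0542).

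Of 26 other genes of glucose metabolism measured, 5 rose (19.2%, against 17.0% of all genes) and 6 fell (23.1% against 15.4%) in RT101 colonies, and 6 rose (23.1% against 14.1%) and 5 fell (19.2% against 15.3%) in bFGF-JB6 colonies. Pdk2, a relative of Pdk1, rose by 1.29 in RT101 and 0.60 in bFGF-JB6, the pyruvate carboxylase Pcx by 0.60 and 0.99, and Bpgm, which makes 2,3-bisphosphoglycerate, by 0.78 and 0.41. H6pd, a hexose phosphate dehydrogenase of the endoplasmic reticulum, rose by 0.87 in RT101 colonies, and the lactate dehydrogenase subunit Ldhb by 1.19 in bFGF-JB6 colonies. In RT101 colonies the mitochondrial PEP carboxykinase Pck2 (-1.65), the nucleotide precursor enzymes Prps1 (-0.59) and Rpia (-0.53) and the pyruvate dehydrogenase subunit Dlat (-0.47) fell. In bFGF-JB6 colonies the muscle enolase Eno3 (-1.11), the glycerol phosphate dehydrogenase Gpd2 (-0.62), Pgm2 (-0.37) and the pentose phosphate enzyme Pgls (-0.36) fell. In RT101 colonies Pgm2 fell too (-0.34) and Pgls rose (0.38). In bFGF-JB6 colonies 3 of these calls were lost without 1 array. Pdk2 was lost without bFGF-JB6 monolayer replicate 2 or 3 or bFGF-JB6 colonies replicate 1 or 2 (limma adjusted p = 0.0844 to 0.109). Bpgm was lost without bFGF-JB6 monolayer replicate 1 or bFGF-JB6 colonies replicate 1 or 2 (0.0561 to 0.0761), and Pgm2 without bFGF-JB6 monolayer replicate 3 (0.0527).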

How the data were processed

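The authors deposited log2 signals of probe sets on 11 Affymetrix arrays; RMA is the tool named, without a version, per the submitters' processing notes. RMA subtracts background, brings arrays to a common distribution and summarises probes; it gives no detection calls and compresses weak signals. Scanning and settings are not given in the sources used here. Values were used as deposited, without a filter. Signals have no counts behind them, and the number of arrays limits precision. The list members and all gene lists were chosen with earlier results of these data known.

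Probe sets were named from the platform annotation. The 64 control probe sets were left out, and probe sets naming several genes were not used. For each of 12393 genes the single-gene probe set with the highest mean signal was taken. Groups came from the titles. limma 3.58.1 (R 4.3.3) fitted group means to all 11 arrays, with eBayes variances (residual degrees of freedom 7, prior 6.12), and Benjamini-Hochberg adjustment was made over the 12393 genes or, separately, over 22626 probe sets. SE is the moderated standard error and intervals are 95%. Members called at 2-fold or more in any contrast, or with opposite probe sets, are given on every array; the others are given by counts and examples, and the wider pathway lists by counts and up to 4 genes per direction and colony contrast. The procedure was tested on simulated data. Alternatives were a replicate block, averaging of probe sets, cyclic loess, median centring and a minimum level. Others were a trended robust variance and a fit of only the groups compared. Further fits left out the 2 arrays with a raised 3′-minus-5′ difference of the Gapdh control, and each array in turn. The labels do not say that a replicate number marks a shared culture or day, so the numbers were not taken to pair arrays. Same-numbered arrays correlated at -0.405 to 0.327 in their deviations from the group means. Deviations within groups this small are not independent, so these values cannot decide whether arrays were paired. Plots used matplotlib 3.10.9 (Python 3.11.15).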

Additional observations from a re-analysis of the deposited data

Results flagged for a closer look

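For 16 of the 37 listed genes the colony change differed between RT101 and bFGF-JB6 by limma's test of that difference (adjusted p under 0.05): it was larger in RT101 for 7, against 15.0% of all genes, and smaller for 9, against 12.7%. Each value is the RT101 change minus the bFGF-JB6 change on the log2 scale. Among HIF targets the differences were -2.56 for Ndrg1, -2.31 for Ero1a, -0.92 for Vegfa, -0.47 for Kdm3a, -0.44 for Ddit4, 0.62 for Higd1a and 0.67 for Fam162a. Among glycolytic enzymes they were -2.20 for Hk2, -0.74 for Pfkl, -0.67 for Pfkp, 0.41 for Ldha, 0.48 for Tpi1, 0.66 for Hk1 and 0.81 for Pfkm. Among branch enzymes they were -0.72 for Pdha1 and 0.75 for Pgd. Every difference here contains both RT101 monolayer arrays, the smallest group. The difference was lost without RT101 monolayer replicate 1 for Kdm3a (adjusted p = 0.0800), Tpi1 (0.0731) and Ldha (0.0661), and without RT101 monolayer replicate 2 for Ddit4 (0.0524), Pfkl (0.0836) and Ldha (0.0844). The Ldha difference was also lost without bFGF-JB6 monolayer replicate 3 (0.0734), bFGF-JB6 colonies replicate 2 (0.0503), RT101 colonies replicate 1 (0.0672) and RT101 colonies replicate 2 (0.0594), all limma adjusted p-values. For Higd1a the other probe sets gave 0.04 and -0.07.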

How the results depend on the processing

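Of 101 calls of listed genes over the 5 contrasts, 76 were kept under every alternative that covered them, 24 were lost under at least 1, and 1 was reversed. Not every alternative covered every call. The minimum-level fit left out 9 listed genes. It covered 21 of 25 calls between monolayers, 21 of 26 between colonies and 15 of 16 in RT101 colonies. The fit of only the groups compared was not run for the difference between the colony changes. The reversed call was Higd1a in bFGF-JB6 colonies, which became 0.21 (limma adjusted p = 0.130) with the mean of its probe sets. The number of listed genes that rose in RT101 colonies (10) became 6 with arrays centred on their medians and 5 to 12 on leaving out 1 array; 5 was without RT101 monolayer replicate 1 and 6 without RT101 colonies replicate 1. Probe sets of listed genes that fell in bFGF-JB6 colonies (6) became 2 with cyclic loess and 2 with only the groups compared. Leaving out 1 array gave 9 to 23 probe sets that rose in RT101 colonies (21) and 8 to 14 with a larger change in RT101 (13), the lowest in each without RT101 monolayer replicate 1. With replicate number as a block, all 18 calls in bFGF-JB6 colonies were kept and 14 of 16 in RT101 colonies; Aldoa (adjusted p = 0.0606) and Pgk1 (0.0528) were lost. That block also brought in Car9 in bFGF-JB6 colonies (0.0398), Aldoc in RT101 colonies (0.0357) and the line differences of Bnip3 (0.0433) and Hif1a (0.0466). A block by the letters of the descriptions lost Pkm in RT101 colonies (0.0800) and brought in Vegfa in bFGF-JB6 colonies (0.0281) and the Bnip3 difference (0.0403). Of the 84 values not called, 27 were called under at least 1 alternative; among them, leaving out bFGF-JB6 colonies replicate 3 brought in Pkm (0.33, 0.0067) and Pfkfb3 (0.30, 0.0196) in bFGF-JB6 colonies, and leaving out bFGF-JB6 monolayer replicate 1 the Pgm1 difference (-0.39, 0.0446). The causes were not tested. Probe sets near the bottom of the scale limit what can be seen for Epas1, Aldoc, Car9, Slc2a3 and Slc16a3.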
